A study of Drosophila melanogaster with 3 samples.

Results

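Divergent promoters, where the start sites of 2 or more protein-coding genes on opposite strands lie close together, held 1107 of the 9264 Vrille-GFP peaks of white prepupae (11.9%, exact binomial 95% interval 11.3 to 12.6). A peak was counted when its summit lay within 1 kb of start sites of at least 2 protein-coding genes, with at least 1 on each strand. Position alone chose these peaks, not their signal. They made up 24.3% of the 4552 summits within 1 kb of any protein-coding start site. Another 3295 of those summits had start sites of 1 gene within reach, and 150 had several genes on the same strand. The remaining 4712 peaks lay farther from any start site.

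The peaks come from chromatin immunoprecipitation and sequencing of whole Drosophila melanogaster of the line vri-GFP, in which GFP is fused to the C terminus of vri, at the white prepupa stage. There was 1 group of 3 biological replicates of pooled males and females, precipitated with an antibody against GFP, and no untagged, mock or input library was analysed here. Because whole animals were used, all tissues are pooled, and binding in few cells cannot be told apart from weak binding in many. The chromatin was sonicated to 200 to 800 bp. The deposited values are peak lists in dm6 coordinates: 30000 entries per replicate, and the 9264 that passed the authors' irreproducible discovery rate, called optimal peaks here. The lists hold no read counts, so the depth of each library is unknown. For comparison across libraries, the signal in a replicate was expressed as a multiple of the median that the same replicate had at optimal peaks. This relative signal is 1 at the median optimal peak and is given as mean ± SD (n = 3). For a spread on counts and positions, the 9264 highest entries of each replicate's own list were treated in the same way. They gave 1270, 1127 and 1143 divergent-promoter peaks in replicates 1, 2 and 3, or 12.7 ± 0.846% of the list (SD, n = 3).

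Vrille is a basic leucine zipper repressor that acts in the circadian clock and is also induced by the moulting hormone ecdysone at the onset of metamorphosis. It binds a short palindromic site shared with the activator Pdp1, the VP box. In the compact fly genome many neighbouring genes are transcribed away from each other from one stretch of DNA, and housekeeping genes often lie in such pairs. Their shared promoters are often rich in the DNA replication-related element (DRE), bound by DREF, and in the related CGATA sequence bound by the insulator protein BEAF-32.

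The stretches between the start sites show how little DNA separates such genes. The first set below belongs to head-to-head pairs with some of the highest peaks. The other stretches were chosen because a VP box or a DRE lies between the starts. All are RefSeq bases of the dm6 assembly, and capitals mark a VP box (TTACGTAA or TTATGTAA) or a DRE (TATCGATA), each searched on both strands.
Chro/Ssl1, chr3L:22878985-22879088, plus strand: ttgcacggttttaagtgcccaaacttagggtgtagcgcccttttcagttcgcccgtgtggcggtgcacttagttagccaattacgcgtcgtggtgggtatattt
Tcs5/CHMP2B, chr3L:5139396-5139618, plus strand: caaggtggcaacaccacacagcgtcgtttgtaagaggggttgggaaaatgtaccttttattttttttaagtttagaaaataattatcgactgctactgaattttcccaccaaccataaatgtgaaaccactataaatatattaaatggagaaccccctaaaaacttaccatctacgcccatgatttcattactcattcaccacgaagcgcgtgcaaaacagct
CG8372/CG8360, chr2L:8212903-8212958, plus strand: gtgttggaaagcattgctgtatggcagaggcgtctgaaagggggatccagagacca
CG15027/Dbct, chrX:15085828-15086124, plus strand: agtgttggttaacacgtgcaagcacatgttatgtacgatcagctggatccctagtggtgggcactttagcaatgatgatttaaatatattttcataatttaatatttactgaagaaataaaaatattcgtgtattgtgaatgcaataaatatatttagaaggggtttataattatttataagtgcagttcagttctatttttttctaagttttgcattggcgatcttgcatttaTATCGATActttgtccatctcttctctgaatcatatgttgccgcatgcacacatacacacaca
ND-MNLL/p115, chrX:7893799-7894030, plus strand: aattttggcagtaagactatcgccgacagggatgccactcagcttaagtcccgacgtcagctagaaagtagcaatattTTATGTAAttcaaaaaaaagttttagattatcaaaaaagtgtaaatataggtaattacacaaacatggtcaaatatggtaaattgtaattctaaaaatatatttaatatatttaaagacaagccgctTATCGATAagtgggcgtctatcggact
Atat/Shc, chr3L:9426759-9427009, plus strand: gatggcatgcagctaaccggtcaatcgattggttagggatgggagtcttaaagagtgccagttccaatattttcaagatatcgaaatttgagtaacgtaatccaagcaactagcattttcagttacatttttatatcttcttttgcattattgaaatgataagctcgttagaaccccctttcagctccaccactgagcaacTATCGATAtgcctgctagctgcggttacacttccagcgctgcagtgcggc
fws/Lamtor3, chr2L:17481030-17481230, plus strand: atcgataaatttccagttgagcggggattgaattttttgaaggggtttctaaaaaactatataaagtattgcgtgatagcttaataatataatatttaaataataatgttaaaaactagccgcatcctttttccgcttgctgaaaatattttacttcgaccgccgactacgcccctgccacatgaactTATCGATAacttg
Gmd/CG3792, chr2L:4977024-4977311, plus strand: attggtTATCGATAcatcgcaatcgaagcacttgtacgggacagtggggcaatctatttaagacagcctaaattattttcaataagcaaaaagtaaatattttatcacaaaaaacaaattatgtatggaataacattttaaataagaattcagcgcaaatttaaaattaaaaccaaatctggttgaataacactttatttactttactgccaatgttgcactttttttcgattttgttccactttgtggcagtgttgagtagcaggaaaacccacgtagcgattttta

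At Tcs5/CHMP2B the summit lay inside the stretch, with no VP box or DRE between the starts. At Chro/Ssl1 and CG8372/CG8360, whose stretches are only 104 and 56 bases long, it lay outside, 81 bp into the Chro side and 38 bp into the CG8360 side. At ND-MNLL/p115 both motifs stand between the starts, and the summit lay 5 bp outside on the ND-MNLL side. At Atat/Shc, fws/Lamtor3 and Gmd/CG3792 the summit lay inside, at base 135, 102 and 158 of the printed stretch, while the capitals cover bases 202 to 209, 189 to 196 and 7 to 14.

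The 5 divergent-promoter peaks of highest signal with a VP box within 50 bases of the summit are shown as 30 bases around the box, in capitals. These carry the sequence that the factor is known to bind.
CG15027/Dbct, chrX:15086347-15086376, plus strand: caacaccgctgTTATGTAAtctcacaaaca
Pdp/Rab39, chrX:7735409-7735438, plus strand: taatgcgttcaTTACATAAttaagtgattg
CG12182/CG16985, chr3L:2599578-2599607, plus strand: cagtgatggtaTTACATAAttcagctcgct
CG32313/Pcyt1, chr3L:1546482-1546511, plus strand: tcaaggcttgtTTACATAAtcaccgtctcc
msl-1/CG10336, chr2L:18689618-18689647, plus strand: agaccaaatagTTATGTAAtcggaaaatta

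At CG15027/Dbct the relative signal was 7.76 ± 1.17 (n = 3), with the summit at 15086355 on X, 230 bp from the nearer start and outside the stretch between the starts. Pdp, which encodes pyruvate dehydrogenase phosphatase, and Rab39 had 4.85 ± 0.543 (n = 3), with the summit 490 bp from the nearer start. CG12182/CG16985 had 4.34 ± 0.0142 (n = 3). CG32313 and Pcyt1, an enzyme gene of phosphatidylcholine synthesis, had 4.45 ± 1.12 (n = 3). The pair of msl-1, a dosage compensation gene, and CG10336 had 2.77 ± 0.184 in the 2 replicates with an overlapping entry. Of these 5 summits, those of CG12182/CG16985 and msl-1/CG10336 lay between the nearest starts and the others outside.

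Nearly all divergent-promoter peaks had head-to-head starts, in which the plus-strand start lies to the right of the minus-strand start so that transcription runs outward from a shared stretch. There were 1061 such peaks (95.8%, 95% interval 94.5 to 96.9). In 922 the genes did not overlap (83.3%, against 86.5% of all bases that meet the distance rule), and in 139 the nearest starts were head to head although the gene bodies overlap (12.6% of peaks, against 7.98% of bases). In the replicates' own lists these shares were 83.8 ± 0.697% and 11.9 ± 0.368% (SD, n = 3). Another 39 peaks had starts whose genes overlap at their 5′ ends (3.52%, against 3.75% of bases), 6 had a gene nested in another and 1 lay at converging genes. The single converging pair was kappaTry/lambdaTry, 2 trypsin genes, with a relative signal of 0.821 ± 0.0655 (n = 3).

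At 1009 of the peaks exactly 2 genes were within reach, at 86 there were 3, at 10 there were 4 and at 2 there were 5. The 1107 summits fell on 871 gene pairs, of which 666 had 1 summit, 175 had 2, 29 had 3 and 1 had 4. The pair with 4 was Snx21/aph-1 on 2L, a sorting nexin gene and a gene for a subunit of gamma-secretase. Its 4 summits had relative signals of 1.62 ± 0.877, 1.57 ± 0.662, 1.18 ± 0.117 and 2.15 ± 0.441 (n = 3). The peaks are therefore not independent, and 73 of them shared their interval with another optimal summit, so that both took the same replicate value. Peaks in separate but overlapping intervals could also take the same replicate entry, and these were not counted. At Snx21/aph-1 the last summit given, the lowest of the 4 in pooled signal, had no values of its own. It shared those of the first summit in replicates 1 and 2 and that of the second in replicate 3.

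Per base, divergent promoters held more summits than other promoters. Bases that meet the distance rule add up to 4.45 Mb, 3.33% of the 6 chromosome arms, and held 249 summits per Mb. Bases within 1 kb of the starts of 1 gene held 154 per Mb, those near several genes of the same strand 122, and all other bases 44.1. In the replicates' own lists the densities were 265 ± 17.6 at divergent and 156 ± 4.67 at single-gene promoters (SD, n = 3). Among the large arms the density at divergent promoters lay between 223 per Mb on X and 270 per Mb on 3R, and chromosome 4 had 3 peaks.

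The excess was confined to the first 200 bp from a start site in the distance ranges examined. Within 50 bp of the nearer start, head-to-head bases held 624 summits per Mb, against 494 for single-gene bases within 50 bp of a start. The densities were 509 and 332 per Mb at 51 to 100 bp, and 302 and 234 per Mb above 100 and up to 200 bp. Farther out the order turned, with 125 and 153 per Mb above 200 and up to 400 bp, and 65.3 and 89.9 per Mb beyond that. In each of these 5 ranges the difference had the same sign in 3 of 3 replicates, for example 159 ± 63.9 more per Mb within 50 bp and 22.1 ± 2.97 fewer beyond 400 bp. The exact sign-flip permutation test over 3 replicates (two-sided) gave 0.25 for each range, the smallest p it can give.

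**Figure D1:**
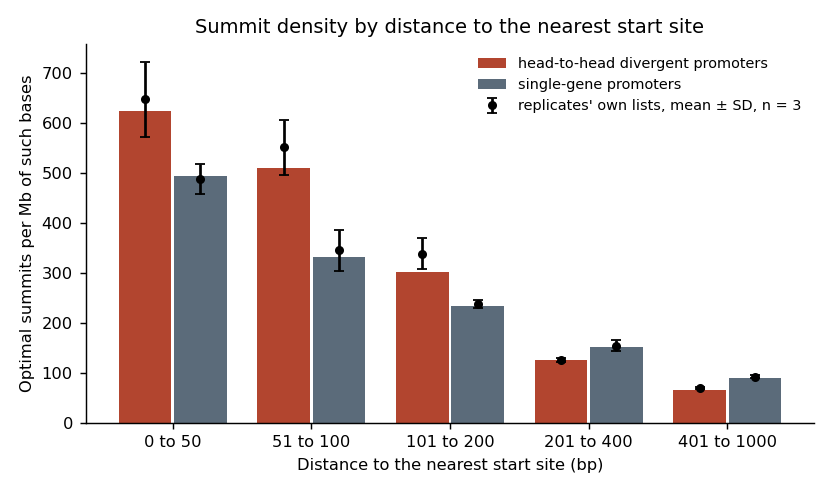
Optimal summits per Mb of bases (bars) by distance to the nearest start site in bp, for head-to-head divergent promoters (left bar) and single-gene promoters (right bar); points and error bars are the mean ± SD of the 3 replicates' own lists. Head-to-head bases hold more summits up to 200 bp and fewer beyond it.

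Head-to-head summits lay close to a start. Their median distance to the nearer start was 87 bp (quartiles 38 to 165), against 227 bp for single-gene promoter summits and 241 bp for all head-to-head bases. Within 100 bp of the nearer start were 603 head-to-head summits (56.8%). The replicates' own lists gave 56.3 ± 2.40% of head-to-head and 29.7 ± 1.87% of single-gene summits (SD, n = 3). A base with 2 starts in reach is by construction nearer to one of them, so the densities by distance above are matched for distance to the nearest start. They are not matched for the side of the start: beyond 400 bp only 14.3% of head-to-head bases lie between the starts. The median distance to the farther start was 390 bp, and 268 summits (25.3%) lay within 200 bp of both.

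The gap between the nearest starts had a median of 347 bp (quartiles 232 to 569) over head-to-head peaks, and 349 ± 5.69 bp in the replicates' own lists. The annotated head-to-head pairs with a gap of at most 2 kb had a median of 408 bp, and the distance rule itself leaves wide gaps few bases. Of the 3499 annotated pairs with a gap of at most 2 kb, 934 (26.7%) held an optimal summit within 1 kb of the starts of both genes. By gap the share was 31.9% of 786 pairs up to 200 bp, 36.9% of 942 pairs above that and up to 400 bp, 31.3% of 629 pairs up to 700 bp, 32.6% of 310 pairs up to 1000 bp and 4.45% of 832 wider pairs. The 95% interval for gaps of 200 to 400 bp, 33.9 to 40.1, overlaps those of both neighbouring ranges, and a gap above 1000 bp can be met only by a summit between the starts.

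Of the 1061 head-to-head summits, 548 (51.6%) lay between the starts, 270 on the plus-strand gene's side and 243 on the minus-strand gene's side. The stretch between the starts makes up 30.2% of head-to-head bases. Replicates 1, 2 and 3 had 54.1%, 46.1% and 58.5% between the starts in their own lists, all above the share of bases. Summits also lie nearer to a start than bases do, so the shares were set side by side within ranges of distance to the nearer start. Within 50 bp of the nearer start 56.8 ± 3.50% of summits lay between the starts, against 49.5% of bases, and at 51 to 100 bp 55.3 ± 11.3%, against 45.8% (SD, n = 3). Between 100 and 200 bp they were 63.3 ± 8.6% of summits and 38.9% of bases. The excess was thus smaller than over all distances up to 100 bp, and not smaller between 100 and 200 bp.

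The share between the starts differed by gap. Unlike the shares just above, those by gap are not matched for distance to the nearer start. At gaps up to 200 bp every base between the starts is within 100 bp of one. The median distance to the nearer start there was 48 bp for summits and 360 bp for bases. With starts up to 200 bp apart, 31.2% of 218 summits lay between them (replicates 31.8 ± 3.39%), against 7.19% of bases. Between 200 and 400 bp the share was 60.3% of 393 summits (60.2 ± 8.09%), against 18.8% of bases. Between 400 and 700 bp it was 45.3% of 274 summits (47.2 ± 9.92%), against 36.6% of bases, a difference about as large as the SD between replicates. Between 700 and 1000 bp the order turned, with 56.8% of 132 summits (59.2 ± 1.45%), against 69.6% of bases.

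**Figure D2:**
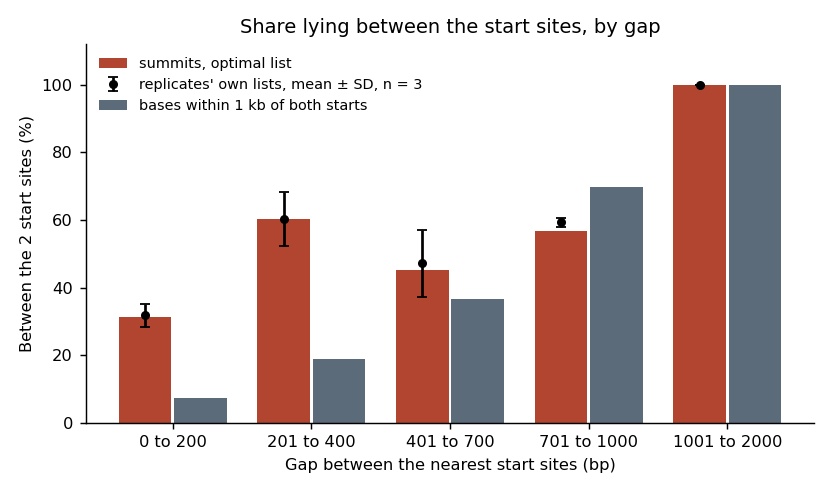
Percent of head-to-head summits of the optimal list lying between the 2 start sites (left bars) and percent of the eligible bases lying there (right bars), by gap in bp; points and error bars are the mean ± SD of the 3 replicates' own lists. Summits exceed bases up to 700 bp, fall short between 700 and 1000 bp, and both are 100% by construction above that. The shares are not matched for distance to the nearer start.

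Inside the stretch, summits of narrow and wide gaps were placed differently. When each gap was divided into 5 equal parts, the middle part of gaps of 200 to 400 bp held 62 of 237 summits (26.2%, replicates 27.2 ± 4.67%), against 18.6% of bases. In gaps of 700 to 1000 bp the middle part held 2 of 75 summits (2.67%, replicates 5.36 ± 1.96%), against 17.1% of bases. There the outer parts, next to the minus-strand and the plus-strand start, held 34.7% and 42.7% of summits, against 22.4% and 22.6% of bases. In the plot of summit positions the points form 1 cloud around the middle at gaps near 250 bp and split into an arm along each start line as the gap widens.

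**Figure D3:**
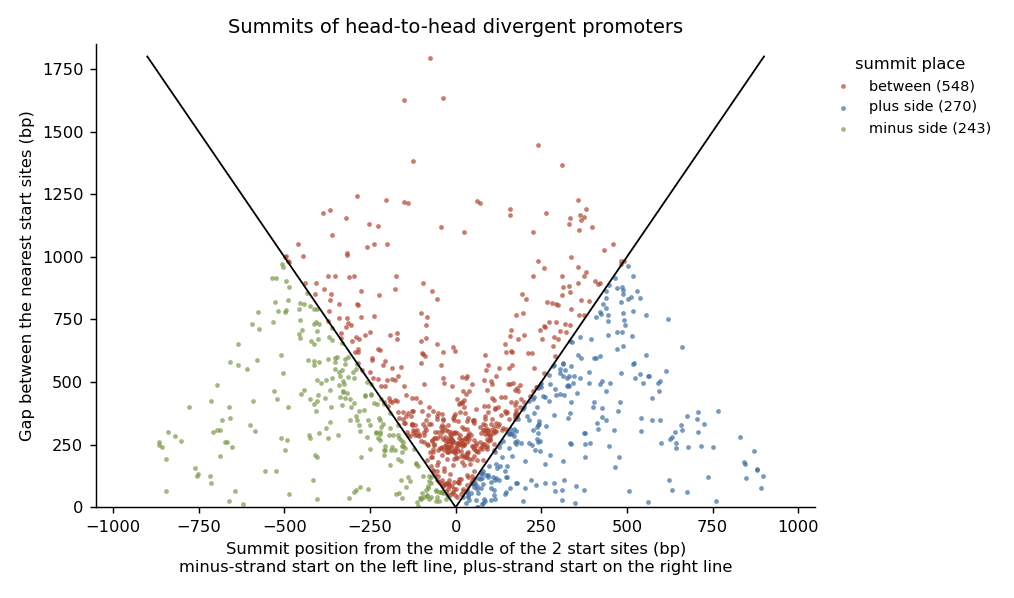
Each point is 1 of the 1061 head-to-head summits: distance in bp from the middle of the 2 nearest start sites (x axis) against the gap between them in bp (y axis). The black lines are the start sites; 548 points lie between them, 270 on the plus-strand gene's side and 243 on the minus-strand gene's side.

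The summit position was repeated between replicates at most, but not all, head-to-head peaks. The overlapping entry of highest signal had its summit a median of 18, 24 and 20 bp from the optimal summit in replicates 1, 2 and 3. It lay on the same side of the starts for 87.6%, 85.5% and 87.7% of the peaks found. At 732 of the 1061 peaks (69.0%) all 3 replicates had the same place as the optimal summit. That share was 60.1% for gaps up to 200 bp and 76.5% for gaps of 700 to 1000 bp.

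Neither strand was favoured: the nearer start was the plus-strand one for 545 of 1061 peaks (51.4%). Where the genes differ in their number of annotated starts, the nearer gene was the one with more starts in 60.1% of peaks, against 51.1% of bases. The nearer gene was the longer in 57.5% of peaks, against 50.6% of bases.

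Among head-to-head pairs with exactly 2 summits, 84 had 1 summit nearer to a start of each gene. In the other 85 both summits were nearer to a start of the same gene, which need not be the same start. The nearest starts were chosen for each summit, so the 2 summits of a pair can have different gaps, and 1 gap per pair was used. The median of these gaps was 433.5 bp in the 84 pairs and 330 bp in the 85. The summits were a median of 236 bp apart. No optimal summits anywhere in the list lay closer than 199 bp, so 2 sites closer than that would appear as 1 summit.

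Signal was higher at divergent than at single-gene promoters, by a small margin. The median relative signal of divergent-promoter peaks was 1.18, 1.20 and 1.19 in replicates 1, 2 and 3, against 1.06, 1.06 and 1.03 for single-gene promoter peaks. The groups of 3 values do not overlap. The difference was 0.139 ± 0.0207 (SD, n = 3; exact sign-flip permutation test, two-sided, p = 0.25, the smallest 3 replicates can give). In each replicate's own list it was 0.0981 ± 0.0199. It was also present at matched distance to the nearest start, with 0.132 ± 0.0541 within 100 bp and 0.195 ± 0.0305 between 100 and 300 bp. Beyond 300 bp it was 0.120 ± 0.0927 at the optimal peaks, while in the replicates' own lists it was 0.0407 ± 0.0642, with -0.0047 in replicate 3. Against peaks near several genes of the same strand the difference was 0.122 ± 0.0182 at all distances. Within 100 bp of a start it was only 0.0479 ± 0.00888 (n = 3).

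The margin was found over the whole list and not within its upper part. When the optimal peaks were split into 10 groups of equal size by signal, divergent-promoter peaks made up 17.6% of the highest group and 7.12% of the lowest. Within the upper 50% of the list by signal, the difference in relative signal from single-gene promoter peaks was -0.0284. The 1107 peaks held 13.9% of the summed signal of the pooled list, with 90 among the 500 highest peaks and 19 among the 100 highest. Among divergent-promoter peaks 76.1% (842) overlapped one of the highest entries in all 3 replicates, against 73.4% of single-gene promoter peaks. Among the 150 peaks near several genes of the same strand the share was higher, 81.3%. No overlapping entry was found for 5, 32 and 31 of them in replicates 1, 2 and 3.

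**Figure D4:**
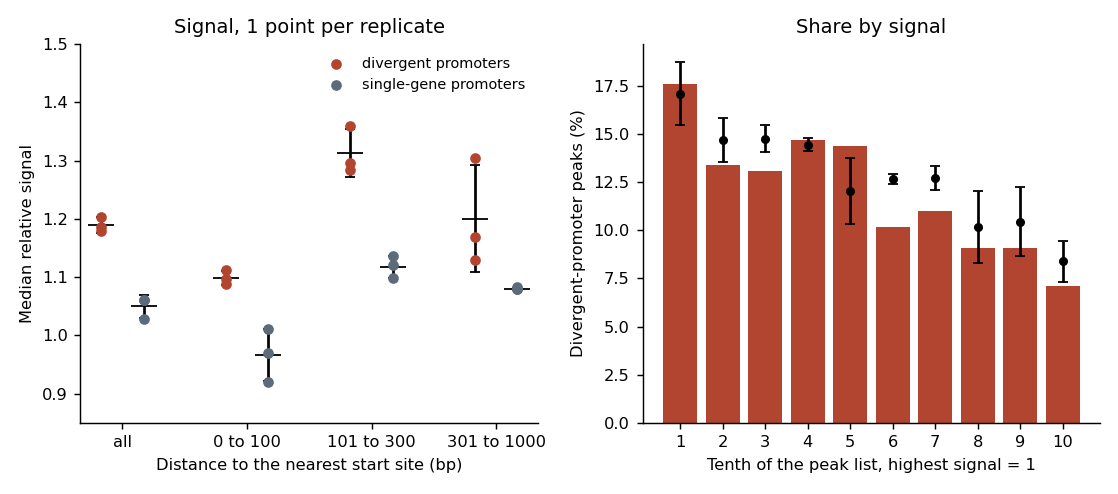
Left, median relative signal in each of the 3 replicates (points; bars show mean ± SD) of divergent-promoter peaks and, to their right, single-gene promoter peaks, for all peaks and by distance to the nearest start in bp; the y axis does not start at 0. Right, percent of optimal peaks at divergent promoters in 10 groups by signal (bars), with the mean ± SD of the 3 replicates' own lists (points), from 17.6% in the highest group to 7.12% in the lowest.

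The highest divergent-promoter peak lay between Ugalt, a UDP-galactose transporter gene, and eIF2Bbeta, a gene of the exchange factor for translation initiation factor eIF2 (X, 2703680 to 2704101, rank 10 of all optimal peaks). Its relative signal was 13.2, 9.52 and 11.4 in replicates 1, 2 and 3. The summit was 39 bp upstream of the Ugalt start in a gap of 719 bp. The next was at PNPase, encoding a polynucleotide phosphorylase, and Gprk2, encoding a kinase of G protein-coupled receptors (3R, 31404469 to 31404878), with 11.9, 8.31 and 11.3. Its summit was 77 bp inside PNPase. Replicate 2 was the lowest at both pairs.

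At mRpS23, a mitochondrial ribosomal protein gene, and CenG1A (2L, 13835270 to 13835678) the relative signal was 10.5, 7.24 and 10.5 in replicates 1, 2 and 3. At Chro, encoding the chromodomain protein Chromator, and Ssl1, encoding a TFIIH subunit (3L, 22878693 to 22879127), it was 8.73, 7.20 and 9.10. At slmb, encoding the F-box protein that targets Period for degradation, and CG5793 (3R, 21127385 to 21128142), it was 9.35, 8.67 and 7.44, with the summit 45 bp inside CG5793. The lowest replicate was replicate 2 at mRpS23 and Chro and replicate 3 at slmb, so no single library was lowest at all of these pairs.

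The other pairs among the 15 highest head-to-head peaks had mean relative signals between 6.80 at CG8372/CG8360 and 7.85 at Nt5a/Ctr9. Ctr9 encodes a subunit of the PAF1 elongation complex, and its interval holds 2 of the 15 summits. Fbw5/CG9147 had 7.62 ± 0.730, Mic26-27/CG5916, the first a gene of the mitochondrial cristae-organising complex, had 7.62 ± 0.488, and Tcs5/CHMP2B, the second an ESCRT-III gene, had 7.32 ± 1.55 (n = 3). Pex11ab/CG8320, the first a peroxisome division gene, had 7.19 ± 1.95 (n = 3). Of these 15 summits, 6 lay between the nearest starts, 3 on the minus-strand side and 6 on the plus-strand side.

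**Figure D5:**
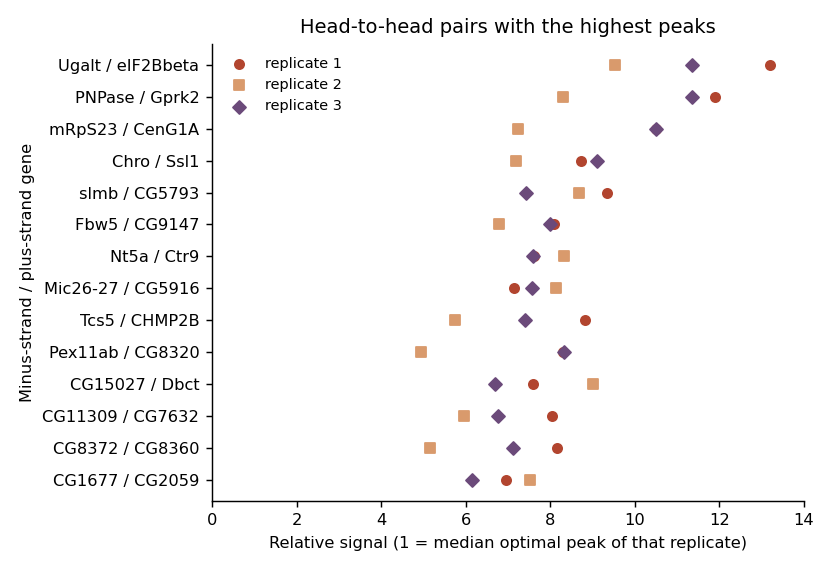
Relative signal (x axis, 1 = median optimal peak of that replicate) in each of the 3 replicates at the 14 head-to-head gene pairs that hold the 15 highest head-to-head peaks, in order of rank from the top. Values run from 4.94 in replicate 2 at Pex11ab/CG8320 to 13.2 in replicate 1 at Ugalt/eIF2Bbeta.

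Among overlapping gene types, CG12182/CG16985 was the highest of the 5′ overlaps, as given above. It was followed by CG13501/Snp with 3.60 ± 0.263 and by porin/SmydA-3 with 3.33 ± 0.488 (n = 3), where porin encodes the mitochondrial voltage-dependent anion channel. The highest nested pair was CG4741/Adck1 with 4.41 ± 0.590 (n = 3). vri and Pdp1, which both hold optimal peaks, have no divergent-promoter peak.

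Genes with a head-to-head partner within 1 kb were more often within reach of a summit. Of the 5052 such genes, 1895 (37.5%) had a start with an optimal summit at most 1 kb away, against 1935 of the 8893 without a partner (21.8%) and 3830 of all 13945 protein-coding genes (27.5%). In the replicates' own lists the difference was 18.0 ± 2.36 percentage points (n = 3). Most of it came from 1 summit counting for both genes. When each summit counted only for the gene of its nearest start, a choice made after seeing the data, the shares were 23.9% and 21.0%, and the difference in the replicates' own lists was 4.28 ± 1.35 points. A divergent-promoter peak was within reach of 1799 genes (12.9% of all 13945), which is the background for the gene lists below.

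Ribosomal and mitochondrial genes stood above that share. Of 93 cytoplasmic ribosomal protein genes 37 (39.8%) had a divergent-promoter peak, of 73 mitochondrial ribosomal protein genes 32 (43.8%), and of 87 oxidative phosphorylation genes 32 (36.8%). Their peaks had median relative signals of 1.46, 1.46 and 1.32, against 1.16 over all divergent-promoter peaks. These lists are also rich in head-to-head partners, which 60.2%, 79.5% and 51.7% of their genes had, against 36.2% of all genes. Of their genes with a partner, 37 of 56, 32 of 58 and 32 of 45 had a promoter summit, against 37.5% over all such genes. With a promoter summit of any kind were 57, 36 and 52 genes of the lists, so 20, 4 and 20 had only summits at other promoters. Examples are Ripalpha/RpL7 with 4.09 ± 0.416, RpS27/Nup37 with 3.37 ± 0.674, Art3/mRpS10 with 5.68 ± 0.153 and mRpL41/CG8079 with 5.11 ± 0.698. COX6B/CG33932, a cytochrome c oxidase subunit gene, had 4.58 ± 0.596, and the ATP synthase gene pairs CG11076/ATPsynbeta and ATPsyngamma/yata had 4.57 ± 0.642 and 4.43 ± 0.175 (n = 3 each).

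Autophagy genes had divergent-promoter peaks at 9 of 20 (45.0%). Among them were Atg4b/Hibch with 2.67 ± 0.814, CG12093/Atg2 with 1.49 ± 0.454 and Xe7/Atg17 with 1.34 ± 0.409 (n = 3). RNA polymerase and general transcription genes had them at 17 of 81 (21.0%), for example MED30/Rev1, a Mediator subunit gene beside a translesion polymerase gene, with 2.19 ± 0.123 (n = 3). DNA replication and repair genes had them at 8 of 47. Translation factor genes had them at 10 of 54 (18.5%), and besides eIF2Bbeta the pair roh/eIF2Bdelta had 3.14 ± 0.680 (n = 3). These lists, in the order given, have a head-to-head partner for 80%, 67.9%, 70.2% and 51.9% of genes, against 36.2% of all genes. Of their genes with a partner, 10 of 16, 17 of 55, 7 of 33 and 13 of 28 had a promoter summit. Among all genes with a partner the share was 37.5%.

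Other housekeeping lists lay near the background of 12.9% of all genes, although most of their genes have a partner. Proteasome genes had a divergent-promoter peak at 6 of 48 (12.5%), aminoacyl-tRNA synthetase genes at 4 of 33 (12.1%) and splicing and mRNA processing genes at 6 of 41 (14.6%). A head-to-head partner was annotated for 54.2%, 69.7% and 87.8% of these genes. Of those with a partner, 6 of 26, 4 of 23 and 6 of 36 had a promoter summit. These shares are below the 37.5% of all genes with a partner. The highest relative signals among the named peaks of each were Rpn13/CtsL1 with 1.52 ± 0.359, Lfg/AspRS with 2.61 ± 0.236 and CG31224/CstF64 with 2.24 ± 0.143 (n = 3).

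In the pathways Vrille is known for, few genes have a head-to-head partner. Of 20 clock genes 10 had a promoter summit (27.5% of all genes did), slmb had it at a divergent promoter, and 3 of the 20 have a head-to-head partner. Of 30 ecdysone response genes 20 had a promoter summit and 3 a divergent one, a share near the 12.9% of all genes, and 23.3% have a partner, against 36.2% of all genes. The divergent ones were ImpE3/CG10903 with 1.68 ± 0.221, usp, which encodes the partner of the ecdysone receptor, beside CG4313 with 1.23 ± 0.133, and tai, encoding a coactivator of that receptor, beside CG9586 with 1.06 ± 0.201 (n = 3). Chemosensory receptor genes had a divergent-promoter peak at 4 of 179 (2.23%) and cuticle protein genes at 1 of 70 (1.43%), Cpr73D beside Ogdh. No divergent-promoter peak had both of its nearest genes in the same list.

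Sequence around the summits was searched for 9 motifs up to 50 bp to either side, on both strands, and the shares were compared with single-gene promoter summits. The VP box was found at 29 divergent-promoter summits (2.62%, 95% interval 1.76 to 3.74), against 1.85% of single-gene summits. In windows centred 400 bp to either side the shares were 0.994% and 0.910%, and over all windows of the same length at divergent bases 0.840%. The difference between the promoter classes was 0.834 ± 0.304 points in the replicates' own lists, higher in 3 of 3, and was 0.0166 points when only starts within 500 bp counted. Among head-to-head summits of the optimal list, those between the starts had a VP box in 1.28% of cases and those outside in 3.90%. These 2 shares have no replicate spread and are not matched for distance to a start. Within 100 bp of a start 1.28% of divergent-promoter summits had a VP box, against 2.62% at all distances. Divergent-promoter peaks with a VP box had a median relative signal of 1.24, against 1.16 without.

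The DRE was found at 41 divergent-promoter summits (3.70%, 95% interval 2.67 to 4.99), against 0.789% of single-gene summits, a difference of 2.99 ± 0.357 points in the replicates' own lists (n = 3; exact sign-flip permutation test, two-sided, p = 0.25, the smallest possible). Divergent promoters hold more of this element with or without a summit. Among all windows of that length centred within 100 bp of a start, 5.08% at divergent and 1.79% at single-gene bases held a DRE, close to the 5.59% and 1.92% of summits within 100 bp of a start. There are 1151 annotated head-to-head pairs with gaps of 50 to 300 bp. Of the 175 with a DRE between the starts 32.0% had an optimal summit within 1 kb of both starts, inside the stretch or beside it, against 34.9% of the 976 without. The replicates' own lists gave the opposite order, 39.8 ± 5.72% with a DRE and 36.7 ± 3.07% without (SD, n = 3), so no direction is given. The stretches above from fws/Lamtor3 and Gmd/CG3792 show the element near one end. Highest among peaks with a DRE at the summit were CG9386/BckdhA with 3.68 ± 0.831, the second a gene of branched-chain amino acid breakdown, and RpS25/CG4820 with 1.94 ± 0.0983 (n = 3).

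The shorter word CGATA, which every DRE contains, was found at 22.0% of divergent-promoter and 18.2% of single-gene summits. Among summits within 100 bp of a start the shares were 29.2% and 22.0%, against 26.4% and 17.2% of windows there. GAGAG, the word bound by GAGA factor, went the other way, with 15.2% against 19.9%, and the difference in the replicates' own lists was -7.56 ± 0.810 points (n = 3). Among all windows it was found in 10.5% at divergent and 12.2% at single-gene bases. Core promoter motif 1 was found at 1.72% and 0.303% of summits, and TATAAA at 13.0% and 11.9%. Over all windows at divergent and single-gene bases, motif 1 was found in 0.647% and 0.121%, and TATAAA in 11.3% and 11.9%. Divergent promoters thus hold more of motif 1 with or without a summit. TATAAA fell below its background near starts. Within 100 bp of a start it was at 11.2% of divergent-promoter and 7.89% of single-gene summits, against 14.8% and 13.9% of windows there. The E-boxes CACGTG and CAGCTG were found at 1.17% and 8.40% of divergent-promoter summits, against 1.37% and 6.31% of single-gene summits. Over all windows their shares were 1.44% and 6.10% at divergent bases, against 1.27% and 4.82% at single-gene bases. Within 100 bp of a start the E-boxes were at 0.958% and 10.7% of divergent-promoter summits, against 1.21% and 9.92% of single-gene summits. The shares of windows there were 1.69% and 8.43% at divergent bases, against 1.22% and 5.75% at single-gene bases. TGACGTCA was found at 0.813% of divergent-promoter and 0.455% of single-gene summits, and in 0.158% and 0.142% of all windows. Mean GC content of the windows was 40.5% at divergent and 42.4% at single-gene summits. At summits near several genes of the same strand it was 40.4%.

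The other motifs were counted in the same way, by motif between the starts and by a summit within 1 kb of both starts, wherever it lay. Pairs with and without a motif, the DRE included, were not matched for gap length. Of the 194 pairs with CAGCTG between the starts 44.8% had such a summit, against 32.4% of the 957 without, a difference of 15.8 ± 3.33 points in the replicates' own lists, with the same sign in 3 of 3. For TATAAA the shares were 31.9% of the 373 pairs with it and 35.7% of the 778 without, with a difference of -6.53 ± 1.43 points in the replicates' own lists. CACGTG was present in 24 pairs, of which 13 had a summit (54.2%, 95% interval 32.8 to 74.4), against 34.1% of those without, and the difference in the replicates' own lists was 21.6 ± 3.54 points. A VP box was present in 18 pairs, ND-MNLL/p115 among them, and 6 of the 18 had a summit (33.3%), against 34.5% without. For the VP box the replicates' own lists differed by 1.70 ± 9.01 points, less than the spread between replicates (n = 3).

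At the edge of the distance rule, the 3 peaks just inside had their farther start 998 bp away: Pgk/Bacc with 2.73 ± 0.855, Ssdp/CG7985 with 1.56 ± 0.333 and CG14440/CG14441 with 0.721 ± 0.188. Just outside were CG14073/HipHop with 0.723 ± 0.0728, Mef2/Pal1 with 1.57 ± 0.0293 and CG31174/CG31431 with 1.17 ± 0.156 (n = 3 each), with the farther start at most 1007 bp away.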

How the data were processed

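Per the labels, the 3 replicates are separate biological replicates. The authors deposited narrowPeak lists, and column 7 of each list, the authors' signal value per peak, is not scaled between lists. Which aligner, peak caller and IDR threshold were used is not given in the sources used here. Summits are 1-based dm6 positions. Start sites were the 19607 starts of 13945 protein-coding genes in Ensembl release 115, and bases came from the RefSeq assembly of the same build; 0 list entries ended beyond an arm. A peak took, in each replicate, the highest entry overlapping it by at least 1 bp. Bases were sampled every 10 bp as background. Intervals on shares are exact Clopper-Pearson 95% intervals computed as if peaks were independent, although neighbouring ones share starts.

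The members, gene lists, motifs and settings were chosen with earlier results of these data known. Peaks were named by signal: the 15 highest head-to-head peaks, the 5 highest of every other pair type, up to 3 per gene list, the 5 highest with a VP box or a DRE, the pairs with most summits, and those at the edge of the 1 kb rule. Where pairs tied or a list had several, only some are named, and one named peak is not reported here. Gene symbols not in the annotation, 3 of the ecdysone and 6 of the replication list, were left out. Distance ranges for density, the 5 parts of the gap and the motif shares of all windows were added after seeing the data. The alternatives were other windows (500 bp and 2 kb), RefSeq starts, outermost starts, the upper 50% of peaks, the replicates' own lists, 1 summit per pair, leaving out replicates, ranks, 50% reciprocal overlap and 51 bp for motifs. The classification and matching were tested on simulated data. Values were computed with NumPy 2.4.6, pandas 2.3.3 and SciPy 1.17.1 in Python 3.11.15 and drawn with matplotlib 3.10.9.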

Additional observations from a re-analysis of the deposited data

How the results depend on the processing

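With 500 bp in place of 1 kb there were 653 divergent-promoter peaks, 63.7% of head-to-head summits lay between the starts, the median distance to the nearer start was 69 bp, the median gap was 268.5 bp and 22.4% of pairs held a summit. The differences from single-gene peaks were then 0.160 in relative signal, 0.0166 points for the VP box and 4.03 points for the DRE. With 2 kb there were 1831 peaks, 94.0% of them head to head, with medians of 119 bp and 494 bp, and differences of 0.203 points for the VP box and 2.11 points for the DRE. With only the outermost start of each gene, 91.7% were head to head, 43.0% of those summits lay between the starts, and the medians were 97 bp and 307 bp. In the upper 50% of peaks by signal there were 677 divergent-promoter peaks, a median gap of 333 bp, 18.5% of pairs with a summit, a VP box difference of 0.361 points and a relative signal difference of -0.0284, the only reversal; this setting selects on signal. The relative signal difference was 0.0981 in the replicates' own lists, 0.0985 with 1 summit per interval and gene pair, and 0.107 with 50% reciprocal overlap. The VP box difference was 0.335 points with 1 summit per interval and gene pair. In 51 bp the differences were 0.234 points for the VP box and 1.57 points for the DRE. Within 100 bp of a start, an alternative chosen after seeing the data, the DRE difference was 3.86 points. The cause of these changes was not tested.

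Leaving out 1 replicate at a time gave 876 to 934 peaks, 95.8 to 95.9% head to head, 50.5 to 53.1% between the starts, medians of 89 to 91 bp and 337 to 347 bp, 21.1 to 22.8% of pairs with a summit, and differences of 0.0961 to 0.130 in relative signal, 0.727 to 1.01 points for the VP box and 2.85 to 3.19 points for the DRE. The pair share falls because fewer peaks pass. Of all alternative values, 59 stayed within the spread between replicates (counts within 1.5 times), 38 moved beyond it and 1 reversed. The 59 include the difference in rank percentile, 2.28 points, which was judged by its direction alone. With RefSeq starts all values equalled those with Ensembl starts except the share of pairs with a summit, 27.0% against 26.7%. The RefSeq setting is therefore not a separate check of the results. There is only 1 group, so no comparison between groups was possible. The paired differences given are between classes of peaks within each replicate. The exact permutation test over 3 replicates cannot go below 0.25, depth is unknown, and no mock, untagged or input library was analysed here, so the signal these promoters have without the tagged protein was not examined.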
